A study of Mus musculus with 4 samples.

Results

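Bcl6, Bcor, Bach2, Prdm1, Irf4 and Irf8, 6 genes that encode transcriptional regulators of lymphoid cell fate, were followed in BA/F3 cells, an interleukin 3-dependent mouse cell line often used as an early B cell model. Their probe sets were taken by platform gene symbol, keeping those annotated to a single gene, which gave 13 of the 45101 probe sets on the array. The 6 genes are among 18194 with such a probe set. They were chosen by earlier results of these libraries, namely the large Bcl6 difference between them, so the member values below are a description and carry no test. The study holds 4 arrays of total RNA. Of these, 2 have the genotype hsa ETV6-RUNX1 + (TA+, an inducible human TEL-AML1 fusion gene, named fusion 1 and fusion 2 here by title and replicate number). The other pair has the genotype hsa ETV6-RUNX1 - (control 1 and control 2), which the series text calls empty vector lines. All 4 samples received 32.5 pM mifepristone, the inducer, for 16 h, so the controls carry the treatment too. The labels do not say whether each line is 1 clone, what drives the fusion gene, or whether replicates are separate cultures, so the spread below is that between these 4 samples. Titles and series text mention chromatin immunoprecipitation, but the protocols describe total RNA and a 3' expression labelling kit, so the values are read as RNA levels.

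The free-text description of each sample exchanges the groups in replicate 1. It calls fusion 1 a control and control 1 a fusion-expressing sample, and for fusion 2 and control 2 it matches the title. Every comparison is therefore given by title (fusion 1 and 2 against control 1 and 2) and by description (control 1 and fusion 2, described as fusion, against fusion 1 and control 2, described as control). Levels are the deposited log2 values, which end at a lowest value of 2.23 shared by all arrays. In each library 54.8% to 55.0% of probe sets lay within 0.5 of that floor. A value there is background, and a log2 difference from it is not a measured fold.

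BCL6 is a BTB zinc finger repressor that germinal centre B cells need, and it recruits corepressors, among them BCOR, the BCL6 corepressor, which is also a subunit of a Polycomb complex. BACH2, a basic leucine zipper repressor that pairs with small MAF proteins, acts beside BCL6 to hold back plasma cell differentiation. PRDM1 (BLIMP-1) drives that differentiation, and BCL6 and PRDM1 repress each other's genes. IRF4 and IRF8 are related interferon regulatory factors: high IRF4 favours the plasma cell, while IRF8 acts in germinal centre B cells and in myeloid cells. In cytokine-driven B lineage cells STAT5 is known to repress Bcl6.

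The promoters of the 2 members whose levels could be measured are shown because these windows were searched for the sites of the regulators just named. Sequences are from RefSeq, build GRCm38.p6, 5′ to 3′ on the strand of the gene, from 250 bases before to 50 bases after an annotated start, and capitals mark every motif match on either strand. The first Bcl6 window is chr16:23988803-23989102 and the second, at another annotated start, is chr16:23981234-23981533, both on the minus strand. The Bcor window is chrX:12160297-12160596, also on the minus strand.
Bcl6, first start: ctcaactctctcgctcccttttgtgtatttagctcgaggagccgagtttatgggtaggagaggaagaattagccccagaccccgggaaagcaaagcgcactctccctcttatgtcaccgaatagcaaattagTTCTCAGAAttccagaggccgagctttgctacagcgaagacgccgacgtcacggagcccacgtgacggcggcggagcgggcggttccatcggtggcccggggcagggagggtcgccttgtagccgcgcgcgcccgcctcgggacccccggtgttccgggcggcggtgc
Bcl6, second start: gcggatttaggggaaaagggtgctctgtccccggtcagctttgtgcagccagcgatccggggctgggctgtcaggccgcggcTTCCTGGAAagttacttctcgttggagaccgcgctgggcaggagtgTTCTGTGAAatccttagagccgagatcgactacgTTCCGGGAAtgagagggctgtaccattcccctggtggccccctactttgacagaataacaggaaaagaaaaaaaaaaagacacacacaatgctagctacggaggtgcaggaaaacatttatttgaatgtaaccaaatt
Bcor: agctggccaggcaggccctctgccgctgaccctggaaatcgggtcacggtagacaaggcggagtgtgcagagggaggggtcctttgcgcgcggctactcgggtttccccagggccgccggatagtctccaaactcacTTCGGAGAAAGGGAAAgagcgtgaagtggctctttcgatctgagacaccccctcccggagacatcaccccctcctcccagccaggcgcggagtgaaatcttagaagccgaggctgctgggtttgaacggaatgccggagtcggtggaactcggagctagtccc

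The first Bcl6 window held 1 match to the STAT palindrome TTCNNNGAA, at position 133 of the 300 bases. The second held 3, at positions 83, 129 and 163, and the match at position 83, TTCCTGGAA, was also a match to the BCL6 core TTCCTNGAA, which is a special case of the palindrome. The palindrome occurred in 8.30% and the BCL6 core in 1.59% of the 32851 RefSeq mouse promoter windows. In the Bcor window a palindrome at position 138 overlapped a match to the interferon-stimulated response element at position 144, a motif found in 3.44% of windows. A second annotated Bcor start lies so close that its window holds the same matches.

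All 6 genes had a promoter window, 9 in all. Bach2 had 1 palindrome, the first of the Irf8 windows had 2, and Prdm1 and Irf4 had none. The RUNX core TGTGGT, present in 16.8% of all windows, was found in 0 of the 9, and its variant TGCGGT, present in 6.45%, in 1 Irf8 window. The BACH and MAF recognition element, present in 0.423% of windows, was not found in the 9. These matches describe the letters of the windows, and promoter binding was not analysed here.

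Bcl6 was measured by 2 probe sets, both designed from the same GenBank entry, and they did not read alike. At 1421818_at the log2 level was 2.64 in fusion 1, 7.39 in fusion 2, 6.77 in control 1 and 2.55 in control 2. Fusion 2 and control 1 were high, fusion 1 and control 2 lay close to the floor, and each title group held 1 library of each kind. At the other probe set, 1450381_a_at, the log2 level was 2.26 in all 4 libraries, at the floor, so the difference rests on 1 probe set.

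By title, the groups overlapped at 1421818_at. The log2 level was 5.02 ± 3.36 (SD, n = 2) for fusion and 4.66 ± 2.98 for control, which differ by 0.36 (SE 2.33). The spread within each group was thus several times the difference. The direction also turned with the library left out: the log2 difference was 2.74 without fusion 1, 2.47 without control 1, -2.01 without fusion 2 and -1.75 without control 2.

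By description, the groups at 1421818_at did not overlap. The log2 level was 7.08 ± 0.44 (n = 2, SD) in the libraries described as fusion and 2.60 ± 0.07 in those described as control. The log2 difference was 4.48 (SE 0.28), and it lay between 4.17 and 4.80 with any 1 library left out. Because the low pair sits within 0.5 of the floor, the size is not a measured fold, and raising all values under 4 to 4 lowered the log2 difference to 3.08. Over the 17720 probe sets with a mean log2 level of at least 4, the 18 that differed at least this much by description, Bcl6 included, are 0.102%. Because this difference was used to choose the genes, its rank is no evidence that it is exceptional.

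The replicate 2 pair is the only one in which title and description name the same condition. There the log2 level of Bcl6 was 4.84 higher in fusion 2 than in control 2, with 1 library each and so no replicate check. In this pair 11.4% of the tested probe sets differed at least 2-fold, 6.74% in the same direction. In the replicate 1 pair the log2 level in fusion 1 was lower than in control 1, a difference of -4.12, almost as large with the opposite sign under the titles. The plot of the differences within each replicate pair shows Bcl6 far out in the upper left, where the titles give opposite signs in the pairs.

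**Figure D1:**
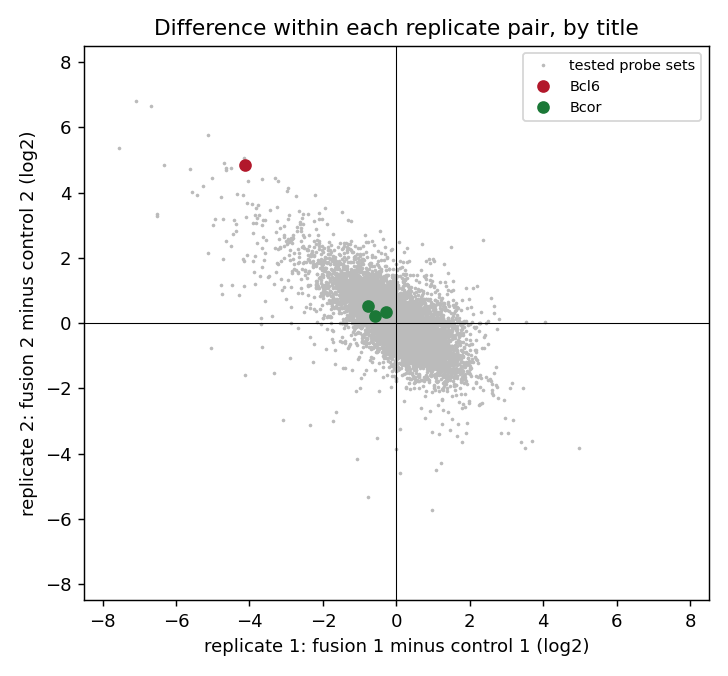
Log2 difference of the library titled fusion minus that titled control in replicate 1 (horizontal) and replicate 2 (vertical), 1 point per tested probe set; Bcl6 is red and the 3 Bcor probe sets are green. Bcl6 lies at -4.12 and 4.84, and the Bcor points lie at -0.28 to -0.76 and 0.21 to 0.52.

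Bcor was read well above the floor in all libraries by each of its 3 probe sets. At 1428773_s_at the log2 level was 7.91 in fusion 1, 7.42 in fusion 2, 8.19 in control 1 and 7.10 in control 2. A probe set with this suffix can share sequence with transcripts of other genes, and here both replicate 1 libraries were above both replicate 2 libraries, as at 33.6% of tested probe sets in either direction. At 1429438_at the log2 level was 6.66 in fusion 1, 6.97 in fusion 2, 7.42 in control 1 and 6.45 in control 2. At 1452910_at it was 5.61, 5.64, 6.18 and 5.43 in the same order. Control 1 was the highest and control 2 the lowest at all 3 probe sets.

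By title, all 3 Bcor probe sets overlapped between groups, with log2 differences of 0.02 (SE 0.50), -0.12 (SE 0.44) and -0.18 (SE 0.35), in the order just given. By description the log2 differences were 0.30 (SE 0.44), 0.64 (SE 0.25) and 0.39 (SE 0.26), all in the direction of Bcl6 but much smaller. The last 2 probe sets did not overlap between the described groups and the first did. With 1 library left out, the log2 difference by description at 1428773_s_at was -0.08 without control 1 and -0.11 without control 2, and 0.68 and 0.71 without fusion 2 and fusion 1, so its direction turned with the library left out. At 1429438_at it stayed between 0.42 and 0.87, and at 1452910_at between 0.12 and 0.66, lowest without control 1 at both.

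Of the 4 member probe sets that passed the filter on the mean, 3 did not overlap between the described groups, where 50.4% of all tested probe sets did not, and 1 of these, Bcl6, also differed at least 2-fold, against 9.23%. By title 0 of 4 were without overlap, against 10.7%. Bcl6 passed the filter only through the libraries in which it is high, and the rule used these contrasts, so nothing is read from the counts.

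Bach2, Prdm1, Irf4 and Irf8 were at background in every library. All 8 of their probe sets failed the filter, as did the second Bcl6 probe set, and these 9 probe sets ran from 2.23 to 2.26 on the log2 scale. At 6 of them all 4 libraries read exactly the lowest value. The single Prdm1 probe set, 1420425_at, read 2.23 in all 4 libraries, and so did both Irf8 probe sets. Bach2 read 2.23 or 2.24 at its 3 probe sets in all 4 libraries. One Irf4 probe set, 1421173_at, read 2.23 throughout, and the other, 1421174_at, read 2.24 in 3 libraries and 2.26 in control 2. On the array as a whole, 53.2% of probe sets lay within 0.5 of the floor in all 4 libraries. At these probe sets no difference between groups was measurable, by title or by description, and a low transcript level cannot be told apart from a probe set that does not work. The plot of all 13 probe sets shows the contrast between these genes and Bcl6 and Bcor.

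**Figure D2:**
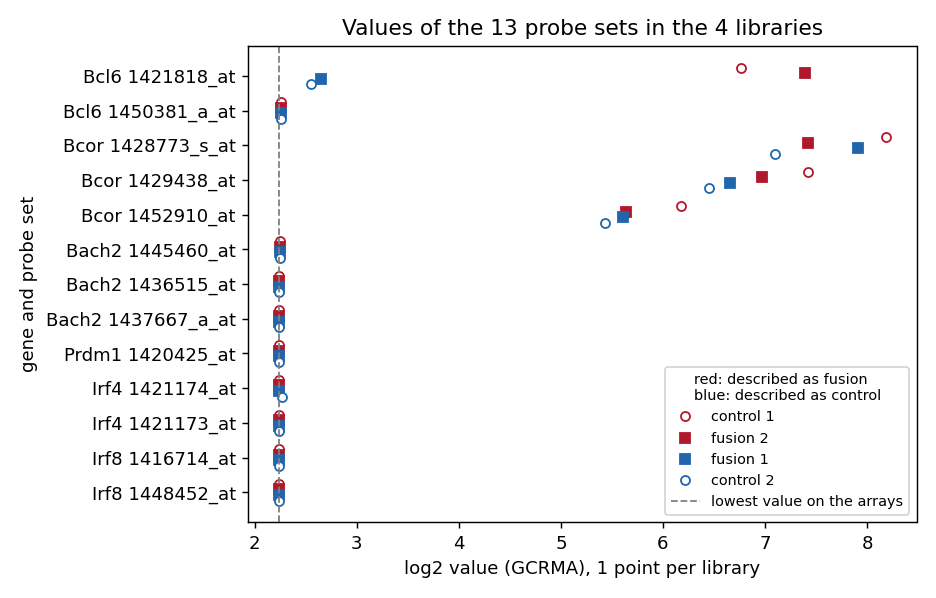
Log2 value (horizontal) of each of the 13 probe sets (vertical) in the 4 libraries; squares are titled fusion, circles control, red is described as fusion, blue as control, and the dashed line is the lowest value on the arrays. For Bcl6 1421818_at the red points are at 6.77 and 7.39 and the blue at 2.55 and 2.64, while 9 probe sets lie on the dashed line.

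The labelled cell type was checked against marker genes. Of 11 early B cell markers with a named probe set, 1 passed the filter: Cd79b, an immunoglobulin receptor chain, had a log2 level of 8.31 in fusion 1, 8.44 in fusion 2, 8.82 in control 1 and 8.62 in control 2. Cd79a, its partner chain, lay below the filter on average, with 4.47 in fusion 2 and 2.69 to 2.90 in the others. At 8 of the 11 all libraries were within 0.5 of the floor, among them Pax5, Ebf1, Rag1 and Il7r, which were named after their values were seen. Apart from Cd79b, the defining B lineage markers thus did not reach the filter, nor did any of 5 T cell markers, of which Cd8a and Cd3d had the highest means, 2.40 and 2.32.

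Some markers of other cells varied with Bcl6 and others did not. Of 7 germinal centre and plasma cell markers 2 passed the filter. Gcsam, a germinal centre signalling adaptor, read 4.26 in fusion 1, 9.00 in fusion 2, 8.32 in control 1 and 4.63 in control 2 on the log2 scale. Mybl1, a MYB family transcription factor, read 7.15, 7.44, 8.42 and 6.49 in that order. Both were higher in the libraries with high Bcl6, while Jchain, Sdc1, Mzb1 and Tnfrsf17 lay within 0.5 of the floor in all 4. S1pr2, named after its value was seen, was below the filter and did not follow Bcl6. It read 2.95, 3.86, 2.98 and 3.99 in the same order, a log2 difference of -0.05 by description. Summed over the list, the log2 level was 9.43 to 9.49 in the libraries described as fusion and 7.23 to 7.55 in those described as control. Gcsam and Mybl1 make up most of that sum, so it does not speak for the list as a whole.

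Of 10 mast cell and basophil markers 4 passed the filter. All 4 had a higher mean by description, where 51.5% of all tested genes did, with a median log2 difference of 2.87. The described groups did not overlap at 3 of the 4, where 50.4% of all tested probe sets did not. Fcer1a, the IgE receptor alpha chain, read 2.37 in fusion 1, 7.69 in fusion 2, 9.91 in control 1 and 2.32 in control 2, a log2 difference of 6.46 by description. Hdc, histidine decarboxylase, read 3.70, 7.84, 8.16 and 5.09 in that order, a log2 difference of 3.60. Both were high in the libraries with high Bcl6, and both were named after their values were seen. Gata2, a hematopoietic transcription factor, read 12.71 in fusion 1, 12.44 in fusion 2, 13.26 in control 1 and 12.60 in control 2, without separating the described groups. Ms4a2, the IgE receptor beta chain, read 5.59, 6.89, 9.18 and 6.22, without overlap between the described groups. Among those below the filter, Prg2 went the other way, with a log2 difference of -2.46 by description and no overlap. It read 3.53 in fusion 1, 2.36 in fusion 2, 2.51 in control 1 and 6.27 in control 2. Mcpt8 and Cpa3 had a higher mean by description, by 1.70 and 0.72, also without overlap, though Cpa3 was within 0.5 of the floor except in control 1. Prg2, Mcpt8 and Cpa3 were named after their values were seen. Kit and 2 more of the list, Tpsab1 and Tpsb2, lay within 0.5 of the floor in all libraries. The summed log2 level was 12.59 to 13.52 against 12.65 to 12.74, ranges that overlapped, but Gata2 makes up most of that sum.

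Of 8 neutrophil and macrophage markers 4 passed, 1 higher and 3 lower by description, with a summed log2 level of 7.65 to 8.16 against 6.76 to 9.38. Lyz2, lysozyme, read 3.11 in fusion 1, 7.27 in fusion 2, 6.95 in control 1 and 6.06 in control 2. Adgre1, the F4/80 antigen, read 5.53, 5.30, 4.37 and 7.37, while Elane and Ltf lay at the floor. Of 6 fibroblast markers only Acta2, smooth muscle actin, passed, with 9.01, 10.76, 10.80 and 9.79 in the same order, and Col3a1 was at most 2.27. The fibroblast list summed to 10.78 to 10.82 against 9.07 to 9.82, and Acta2 makes up most of that sum.

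RNA and labelling measures separated the described groups at some control transcripts and not at others. The 3' minus 5' log2 difference was read for each. For the dap spike, a transcript added before labelling, it was 3.10 in fusion 1, 4.43 in fusion 2, 3.71 in control 1 and 3.19 in control 2 at its first pair of probe sets. The described groups thus did not overlap there, and the mean was 0.93 higher in the libraries described as fusion. They did not overlap either at thr, at the first lys pair or at the second dap pair. There the described fusion mean was higher by 0.33, 0.14 and 0.85. The second lys pair, higher by 0.09, and the second phe pair, with a difference of -0.08, also did not overlap, while the first phe pair did. Of the bio and cre control transcripts some pairs overlapped, such as BioC, and others did not, such as the first BioB pair. The 3' minus 5' difference of Gapdh, a cell transcript, was -0.31, -0.34, -0.30 and -0.37 in that order, and the groups overlapped. They also overlapped at 18S RNA, with -0.96, -0.66, -0.73 and -0.49, at actin, with 0.70, 0.63, 0.64 and 0.63, and at the transferrin receptor. At the transferrin receptor the 3' minus 5' difference was 1.31 in fusion 1, 4.53 in fusion 2, 3.87 in control 1 and 4.38 in control 2. Fusion 1, a library with low Bcl6, thus stood apart, while control 2, the other one, did not. The part of these marker and labelling differences in the Bcl6 difference was not tested. In a bulk sample, fewer cells of a type and less RNA per cell cannot be told apart.

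Genes with the profile most like that of Bcl6 over the 4 libraries were found by the distance between log2 values centred on each gene's own mean, over 8890 other genes. The 6 closest were Slc9b1, a sodium/proton exchanger (distance 0.30), Lgals3, which encodes the lectin galectin-3 (0.41), Gcsam (0.43), the protein kinase D gene Prkd3 (0.71), Hal, histidine ammonia-lyase (0.73), and Cda, cytidine deaminase (0.74). The median distance of all genes was 4.51. A gene with a flat profile lies about that far from Bcl6, so this median restates the size of the Bcl6 swing and is no yardstick for closeness. Slc9b1 read 2.30 in fusion 1, 7.06 in fusion 2, 6.80 in control 1 and 2.30 in control 2 on the log2 scale. Lgals3 read 2.39, 7.37, 7.08 and 2.46 in that order, so both lay near the floor in the same pair of libraries as Bcl6. Cda did not: it read 6.03, 10.24, 9.25 and 5.87, and its log2 difference by description was 3.79 (SE 0.40). Gcsam also kept clear of the floor, with 4.26 and 4.63 in its low libraries.

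The 4 genes closest to the mirror image were Parp8, an ADP-ribosyltransferase family member (0.95), the metallothionein gene Mt2 (1.08), Bend5 (1.11) and Ccnb1ip1 (1.50). Mt2 read 11.27 in fusion 1, 7.93 in fusion 2, 7.59 in control 1 and 11.56 in control 2. The described groups fail to overlap at 50.4% of tested probe sets, so the order alone is common. At 9.23% they fail to overlap and differ at least 2-fold, and at 0.102% the difference is at least that of Bcl6. The genes were chosen for that Bcl6 difference, so the last share is a description and nothing is read from it. These 10 genes were picked for their profile and are given as a description.

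**Figure D3:**
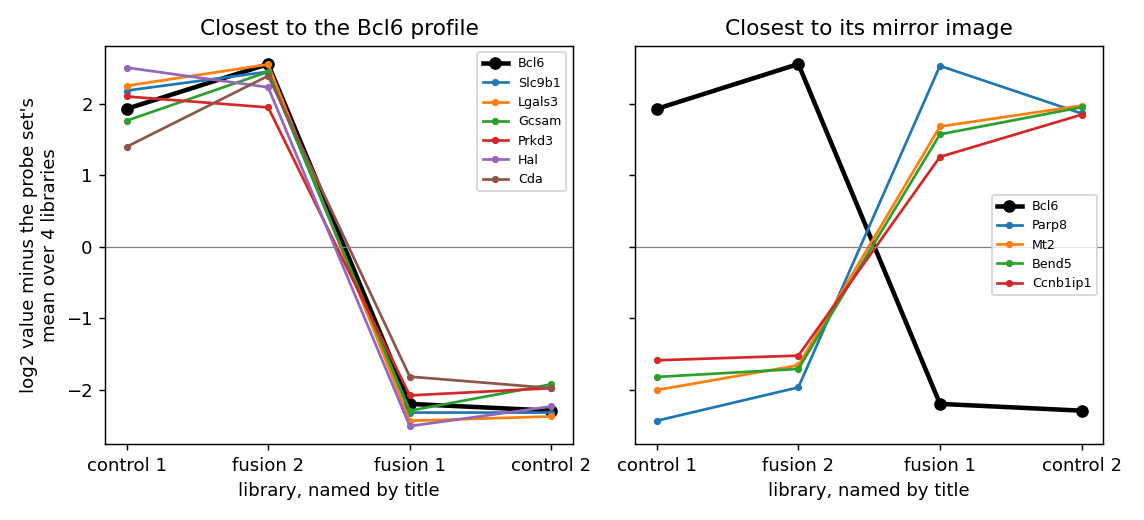
Log2 value minus the mean over the 4 libraries (vertical) for Bcl6 in black and for the 6 genes closest to it (left) or the 4 closest to its mirror image (right), by library (horizontal). In both panels the step falls between the libraries described as fusion, on the left of each panel, and those described as control.

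Genes around the 6 regulators were read from 7 lists, with the highest-mean probe set standing for each gene. Of 95 genes with a named probe set 71 were tested, and 0 passed an adjusted p of 0.05 in limma by description or by title. At an unadjusted p under 0.05 there were 16 by description, 22.5% where all tested genes had 23.3%, and 1 by title, Gpr183, a chemotactic receptor of B cells, named after its value was seen, with a log2 difference of -2.63. Over all 17720 probe sets 19.7% by description and 0.282% by title had such a p, and 0.0113% passed the adjusted threshold by description and 0% by title. As background for the counts by title below, 46.2% of all tested genes were higher by title, with a median log2 difference of -0.02.

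The list of BCL6 upstream regulators, which includes feedback inhibitors of the cytokine receptors that act on STAT5, had tested genes that all had a higher mean in the libraries described as fusion. This held for 8 of 8, where 51.5% of all tested genes were higher, with a median log2 difference of 0.81 beside 0.01 over all tested genes. The described groups did not overlap at 5 of the 8, where 50.4% of all tested probe sets did not overlap, and 0 passed the adjusted threshold. Socs3, a feedback inhibitor of cytokine receptors, read 7.75 in fusion 1, 9.56 in fusion 2, 9.31 in control 1 and 7.68 in control 2, differing by 1.72 (SE 0.18) with a limma adjusted p = 0.12. Foxo3, a transcription factor that activates Bcl6, differed by 0.80 (SE 0.20), the kinase gene Jak2 by 0.83 (SE 0.21) and Stat3 by 0.46 (SE 0.18). By title the same list had 5 of 8 higher and a median of 0.16. The list was chosen with earlier results known. It mixes activators of Bcl6 with the STAT5 genes and feedback inhibitors, so nothing on regulation of Bcl6 is read from the shared direction.

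The STAT5 genes and Foxo1 belong to the same list and were named after their values were seen. Stat5b read 7.41 in fusion 1, 8.59 in fusion 2, 8.56 in control 1 and 8.24 in control 2, so the described groups did not overlap, with fusion 1 well below the other 3. Stat5a differed by 0.89 on the log2 scale, with an SD of 2.13 and 1.86 within the groups, which overlapped. Foxo1, another activator of Bcl6, was at the floor in all 4 libraries.

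Genes that BCL6 is known to repress, mostly from human germinal centre B cells, were mixed. Of 12 tested genes 5 were higher and 7 lower by description, with a median log2 difference of -0.22, and 0 passed the adjusted threshold. Myc, which encodes a growth-promoting transcription factor, read 10.38 in fusion 1, 7.96 in fusion 2, 7.27 in control 1 and 9.94 in control 2, differing by -2.55 (SE 0.33) with a limma adjusted p = 0.13. Id2, an inhibitor of basic helix-loop-helix factors, read 7.93, 10.66, 10.04 and 8.30 in that order, differing by 2.23 (SE 0.30) with a limma adjusted p = 0.13. Both genes thus separated the described groups as Bcl6 did, in opposite directions. Cd44, an adhesion receptor, differed by 1.15 (SE 0.31) and Cd69, an activation antigen, by -1.47 (SE 0.51). By title 5 were higher and 7 lower, with a median of -0.02.

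Corepressors of BCL6 and related BTB zinc finger genes had 11 of 17 tested genes higher by description, against 51.5% of all tested genes. The median log2 difference was 0.19, and 0 passed. Hdac1, a histone deacetylase, read 11.38 in fusion 1, 10.70 in fusion 2, 10.68 in control 1 and 11.44 in control 2, differing by -0.72 (SE 0.11) with a limma adjusted p = 0.14. Zbtb20, a BTB zinc finger repressor, differed by 1.73 (SE 0.55), Hdac5 by 0.73 (SE 0.20) and Tbl1xr1, a subunit of the NCOR complex, by 0.35 (SE 0.15). By title 6 of 17 were higher, with a median of -0.07.

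All 9 named partners of BCOR in its Polycomb complex were tested, and their differences were small. By description 4 were higher and 5 lower, with a median log2 difference of -0.08, and 0 passed. Skp1, an adaptor subunit, differed by -0.53 (SE 0.17), Rnf2, the RING1B ubiquitin ligase, by -0.41 (SE 0.17), Yaf2 by 0.24 (SE 0.11) and Kdm2b, a CpG-binding histone demethylase, by -0.26 (SE 0.14). By title 4 were higher and 5 lower, with a median of -0.02.

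Among relatives, small MAF partners and antioxidant genes of the BACH2 group, 9 of 13 were higher by description, against 51.5% of all tested genes. The median log2 difference was 0.11, and 0 passed. Bach1, the paralogue of Bach2, was read well above the floor, with 9.75 in fusion 1, 10.55 in fusion 2, 10.91 in control 1 and 9.25 in control 2, differing by 1.23 (SE 0.26) with a limma adjusted p = 0.16. Hmox1, heme oxygenase 1, which BACH1 is known to repress, differed by 1.65 (SE 0.51). Txnrd1, thioredoxin reductase, differed by 0.35 (SE 0.13) and Gclm, a subunit of the glutathione synthesis enzyme, by -0.34 (SE 0.14). By title 8 of 13 were higher, with a median of 0.07.

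Several other interferon regulatory factors were above the filter where Irf4 and Irf8 were at the floor, though Irf7 read 3.15 in all 4 libraries and was not tested. Of 10 tested genes in the list of IRF relatives and partners 8 were higher by description, against 51.5% of all tested genes. The median log2 difference was 0.40, and 0 passed. Irf2, a repressor of interferon responses, read 8.24 in fusion 1, 8.94 in fusion 2, 8.98 in control 1 and 8.06 in control 2, differing by 0.81 (SE 0.17) with a limma adjusted p = 0.16. Irf1, an interferon-induced activator, differed by 0.81 (SE 0.27), Ikzf1, the lymphoid zinc finger factor Ikaros, by 0.66 (SE 0.14) and Irf2bp1 by 0.41 (SE 0.29). By title 5 were higher and 5 lower, with a median of 0.02.

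In the plasma cell list, which surrounds Prdm1, 2 of 11 named genes were tested, and both had a lower mean by description without separating the groups. Xbp1, a secretory pathway transcription factor, read 11.60 in fusion 1, 11.76 in fusion 2, 11.10 in control 1 and 11.68 in control 2, a log2 difference of -0.21 (SE 0.26). Ell2, a transcription elongation factor, differed by -0.19 (SE 0.29). At 8 of the 11, among them the transcription factors Pou2af1 and Spib, which were named after their values were seen, all libraries lay within 0.5 of the floor.

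**Figure D4:**
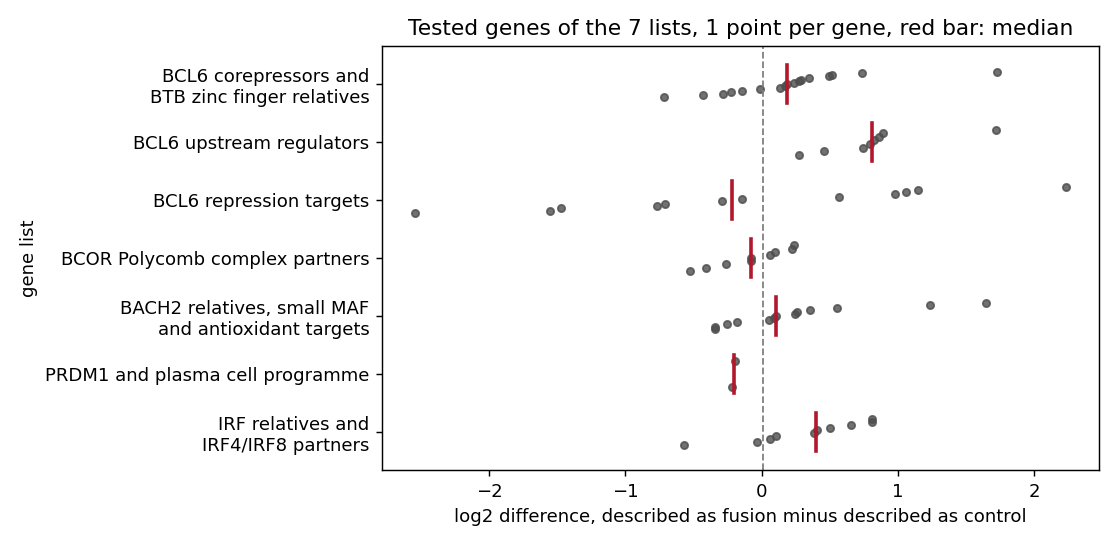
Log2 difference by description (horizontal, described as fusion minus described as control) of each tested gene in the 7 lists (vertical), with the list's median as a red bar and the median of all tested genes, 0.01, as a dashed line. The upstream regulators lie to the right with a median of 0.81, and the BCL6 repression targets spread from Myc at -2.55 to Id2 at 2.23.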

How the data were processed

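Total RNA of BA/F3 cells was hybridised to 4 mouse 3' expression arrays, 1 per sample. The deposited values are on a log2 scale, read as such from their range of 2.23 to 16.3, and the authors made them with GCRMA, version 2.28.0 per the submitters' processing notes; their filters and tests are not given in sources used here. Depth does not apply to arrays, and their number limits the precision. Names came from the platform annotation, 34958 with 1 symbol, 932 with several and 9211 with none. Values were fitted with limma 3.58.1 in R 4.3.3 (lmFit, eBayes with trend = TRUE, two-sided, Benjamini-Hochberg adjustment, threshold 0.05) over the 17720 probe sets with a mean of at least 4, leaving out 64 control probe sets. The fit was tested on simulated data. The same fit was made by title and by description, each with 2 residual degrees of freedom. Members, lists and motifs were chosen with earlier results of these data known. Genes were named as the 6 members, those closest to Bcl6 or its mirror image, up to 4 per list with the smallest p by description, and the 2 brightest per marker list; markers at the floor, and genes so marked in the text, were named after their values were seen. Alternatives were each library left out, a replicate block, other filters, quantile normalization, median centring, a raised floor, no trend and the lowest-mean probe set for a gene.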

Additional observations from a re-analysis of the deposited data

How the results depend on the processing

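By title, 0 probe sets were called in limma under all 11 alternatives, with a lowest adjusted p of 0.976 to 1, and 50 had an unadjusted p under 0.05 in the fit as reported. By description 2 probe sets were called as reported. This became 0 with any 1 library left out (0 to 0), 0 with a replicate block, 0 without the filter and 0 with values under 4 raised to 4, and it rose to 14 with quantile normalization and to 10 with median centring; the cause was not tested. Of the genes in the 7 lists, 0 passed under each of the 12 alternatives by title and the 12 by description. For Bcl6 the log2 difference by description was 3.08 with values under 4 raised to 4, which by construction shortens differences from the floor. With 1 library left out it ranged from 4.17 to 4.80 by description and from -2.01 to 2.74 by title. The replicate block cannot change the Bcl6 differences of 4.48 and 0.36, because each group holds 1 library of each replicate number. It changed the SE from 0.28 to 0.26 by description and from 2.33 to 2.63 by title. With the block, 5579 probe sets had an unadjusted limma p under 0.05 by description, where the fit as reported had 3494. The block left 1 residual degree of freedom, and the lowest adjusted p by description was 0.059. Same-numbered libraries deviated from their group means with a correlation of -0.20 by title and 0.59 by description; nothing in the labels ties the numbers to a shared culture or day, so they were not treated as pairs. Probe sets at the floor limit what can be said of Bach2, Prdm1, Irf4 and Irf8.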
